A study of Mus musculus with 6 samples.

Results

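The alpha- and beta-tubulin isotypes and gamma-tubulin of N2A-A5 cells were examined as 10 genes, chosen by symbol with earlier results of these data known. They were the alpha-tubulin genes Tuba1a, Tuba1b and Tuba1c, the beta-tubulin genes Tubb2a, Tubb2b, Tubb3, Tubb4b, Tubb5 and Tubb6, and the gamma-tubulin gene Tubg1. All 10 were among the 40413 genes of the count table, and all 10 passed the filter on low counts that left 13705 genes for testing. N2A (Neuro-2a) is a mouse neuroblastoma line, and the labels describe N2A-A5 as acceptor cells. The 3 libraries at 0 h came from undifferentiated cells kept in 10% serum with 10 µg/mL blasticidin, and the 3 libraries at 96 h from cells given 1% serum and 10 µM retinoic acid, with blasticidin left out, for 96 h. Serum, retinoic acid, blasticidin and time in culture changed together and cannot be told apart here. The comparison asks how the transcripts of the tubulin family differ between the undifferentiated and the differentiated state.

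Microtubules are polymers of alpha- and beta-tubulin heterodimers, and gamma-tubulin sits in the ring complex that nucleates them. Mammals carry several genes for each subunit. Their proteins are very similar along the folded body and differ most in the acidic C-terminal tail, which lies on the microtubule surface and carries most tubulin modifications. Tubb3 is widely used as a marker of neurons, Tuba1a and Tubb2b are abundant in developing neurons, and Tubb5 and Tuba1b are found in most dividing cells. Tubulin mRNA levels are also under a feedback loop in which TTC5 binds the first residues of nascent alpha- and beta-tubulin and leads to decay of the mRNA when free tubulin is plentiful.

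Library totals ran from 16.8 to 20.9 M counts. The predicted gene Gm26917 took 18.7% to 22.7% of the counts at 0 h and 28.7% to 31.7% at 96 h, and levels below are in CPM, counts relative to library sizes scaled with TMM factors. With library size as the only scaling, the median over all genes tested shifted by -0.25 on the log2 scale. On that scale 29.2% of calls were higher in place of 49.9%, so directions are relative to the TMM scale. Of 9 markers of sympathoadrenal neuroblastoma 8 were tested and 6 were lower, from Dbh (4.18 and 0.445 CPM) and Tbx2 (55.0 and 22.1 CPM) to milder falls: Hand2 had a mean of 381 CPM at 0 h and 311 CPM at 96 h, Phox2a 77.6 and 56.1 CPM, while Th stayed under 1 CPM in both means. Their summed level ran from 613 to 629 CPM at 0 h and from 473 to 484 CPM at 96 h. For comparison, 28.8% of all genes tested were lower and 28.7% higher. Sums of 6 glial markers (6.87 to 9.35 and 5.29 to 9.12 CPM), 3 endothelial markers (1.41 to 1.498 and 1.33 to 2.40 CPM) and 4 immune markers (0.0852 to 0.157 and 0.0666 to 0.334 CPM) overlapped between 0 h and 96 h. The sum of 6 fibroblast and mesenchymal markers went from 6.16 to 6.46 CPM at 0 h to 17.5 to 20.4 CPM at 96 h. Of these 6, 4 were tested and 3 were called higher (Pdgfrb, Pdgfra and Dcn), and Lum was at 0 in all libraries. The part of this rise in the results was not tested. In bulk RNA, fewer cells of a kind and less RNA per cell cannot be told apart.

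The sequences of the family set what the counts can resolve, and the ends of the coding sequences show how alike the copies are. In the alpha-tubulin set below, capitals mark the last sense codon, because the C-terminal tyrosine is the residue that the tyrosination cycle removes and restores. The stretches are the last 60 coding bases, stop codon included, 5′ to 3′, and each lies within the last coding exon (GENCODE M21 transcripts, GRCm38; an earlier build than the mm39 of the counts, so no positions are given).
Tuba1c (chromosome 15): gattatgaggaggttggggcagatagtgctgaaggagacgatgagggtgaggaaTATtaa
Tuba8 (chromosome 6): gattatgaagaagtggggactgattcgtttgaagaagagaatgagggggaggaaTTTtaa
Tuba4a (chromosome 1): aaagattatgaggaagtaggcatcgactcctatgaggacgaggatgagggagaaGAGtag

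Tuba1c ends in a tyrosine codon, whereas Tuba8 ends in a phenylalanine codon and Tuba4a in a glutamate codon. The whole coding sequences of Tuba1a and Tuba1b were 98.3% identical, with a longest identical run of 281 bases, and Tuba1b and Tuba1c were 98.4% identical. In the RefSeq annotation (GRCm38.p6) Tuba1b and Tuba1a are direct neighbours, and 4 genes, none protein-coding, lie between Tuba1a and Tuba1c.

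The beta isotypes are set out the same way. Tubb2a and Tubb2b come first, with capitals at the bases where each differs from the other, and then Tubb3, Tubb4b and Tubb5, with capitals at the last sense codon.
Tubb2a (chromosome 13): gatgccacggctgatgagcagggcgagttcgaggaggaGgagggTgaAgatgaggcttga
Tubb2b (chromosome 13): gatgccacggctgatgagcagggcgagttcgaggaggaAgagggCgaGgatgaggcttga
Tubb3 (chromosome 8): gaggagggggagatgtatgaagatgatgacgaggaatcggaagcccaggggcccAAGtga
Tubb4b (chromosome 2): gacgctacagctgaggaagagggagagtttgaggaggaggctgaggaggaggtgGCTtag
Tubb5 (chromosome 17): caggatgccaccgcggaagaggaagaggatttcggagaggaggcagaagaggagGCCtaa

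Tubb2a and Tubb2b, which lie beside each other with 1 noncoding gene between them, differed in 3 of these 60 bases and were 96.5% identical over the coding sequence. Tubb3 ends in a lysine codon and Tubb4b and Tubb5 in an alanine codon. Identity between Tubb3 and Tubb5 was 82.3%, and no identical run between them was longer than 26 bases. Words of 31 bases show what this means for counting. Another gene's transcripts held 77.0% of the words of Tuba1a, 75.4% of Tuba1b, 63.9% of Tuba1c, 56.4% of Tubb2a, 45.9% of Tubb2b and 64.6% of Tubb4b, the last mostly in the pseudogene Tubb4b-ps1. No gene of the count table carried the symbol Tubb4b-ps1, and how reads it shares with Tubb4b were counted was not tested. For Tubb3 (3.26%), Tubb5 (4.43%) and Tubb6 (3.94%) the share was small, and for Tubg1 it was 24.2%, nearly all with Tubg2. Levels of Tubb3, Tubb5 and Tubb6 therefore rest mostly on sequence of their own, whereas the division of reads among the Tuba1 genes, and between Tubb2a and Tubb2b, was an estimate and is uncertain.

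All 10 genes passed the test (edgeR quasi-likelihood test, Benjamini-Hochberg adjusted p under 0.05), 3 higher and 7 lower at 96 h, and in all 10 the libraries at 0 h and 96 h did not overlap. Over all genes tested, 57.4% passed, 28.7% as higher and 28.8% as lower, and libraries did not overlap for 64.1%. A pass is thus the common outcome in this comparison, and the sizes of the changes were moderate: log2 fold changes ran from -0.57 (Tubb3) to 0.52 (Tubb2a), with a median of -0.25 against 0.03 over all genes. Tuba1a, Tubb2a and Tubb2b rose. Tuba1b, Tuba1c, Tubb3, Tubb4b, Tubb5, Tubb6 and Tubg1 fell.

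**Figure D1:**
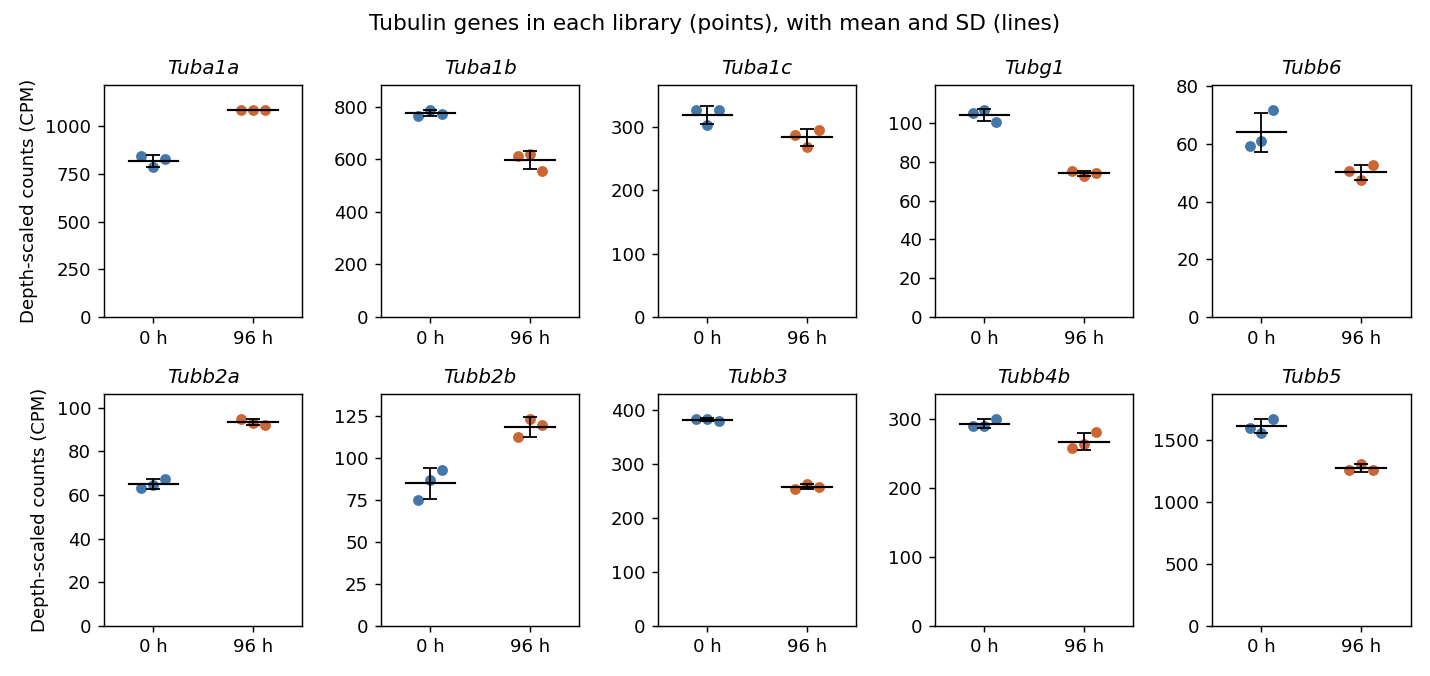
Depth-scaled counts (CPM, vertical axis, from 0 in each panel) of the 10 tubulin genes in the 3 libraries at 0 h (blue) and the 3 at 96 h (orange); points are libraries, and black lines give the mean and SD. Tuba1a, Tubb2a and Tubb2b were higher in all 96 h libraries, and the other 7 genes were lower in all of them.

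Among the alpha-tubulins, Tuba1a rose and Tuba1b fell by a similar amount on the log2 scale. Tuba1a had 845, 786 and 828 CPM in the 0 h libraries and 1084, 1087 and 1087 CPM in the 96 h libraries. The 96 h libraries were thus close together and all above the 0 h libraries, by 1.33-fold (log2 fold change 0.41 ± 0.04, SE; edgeR adjusted p = 1.43e-06). Tuba1b, an alpha-tubulin of most cell types, had 768, 789 and 773 CPM at 0 h and 614, 621 and 558 CPM at 96 h. Every 96 h library lay below every 0 h library (log2 fold change -0.38 ± 0.05, edgeR adjusted p = 1.02e-05). Tuba1c had 327, 303 and 327 CPM at 0 h and 288, 269 and 295 CPM at 96 h. Its fall was small (-0.17 ± 0.05, edgeR adjusted p = 0.00986) and was not called with upper-quartile factors (-0.09, adjusted p = 0.140) or with a stricter filter on low counts (-0.09, adjusted p = 0.114).

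The 3 alpha genes added together changed little on the TMM scale. Their summed level, which does not depend on how reads were divided among them, was 1915 ± 33 CPM at 0 h and 1968 ± 24 CPM at 96 h (mean ± SD, n = 3 libraries each), a log2 fold change of 0.04 ± 0.04 (SE), and the groups met at 1940 CPM. In this sum, the rise of Tuba1a was largely offset by the falls of Tuba1b and Tuba1c. With library size only, the log2 fold changes were 0.16 for Tuba1a, -0.63 for Tuba1b and -0.42 for Tuba1c. The sum was not fitted on that scale, so its near-constancy holds for TMM scaling only. Expressed per kilobase of transcript, Tuba1a took 43.4%, 41.6% and 42.8% of all alpha-tubulin mRNA at 0 h and 54.4%, 54.7% and 55.9% at 96 h. Tuba1b took 40.8%, 43.3% and 41.3% at 0 h and 31.9%, 32.4% and 29.7% at 96 h. The groups did not overlap for either share. The ratio of Tuba1a to Tuba1b, which no scaling of libraries can alter, went from 1.02 ± 0.05 to 1.76 ± 0.11 (exact two-sided permutation p = 0.1, the smallest that 3 libraries against 3 allow, and 0.114 after adjustment over 16 shares and ratios). Tuba1c went from 15.1% ± 0.43 to 13.1% ± 0.74 of the alpha pool, and Tuba4a, Tuba8 and the other alpha genes together from 0.491% ± 0.066 to 0.587% ± 0.042.

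The beta-tubulins divided into 2 that rose and 4 that fell. The pair that rose was Tubb2a and Tubb2b, neighbouring genes of class II beta-tubulin, which is enriched in brain. Tubb2a had 63.0, 64.7 and 67.5 CPM at 0 h and 95.1, 93.1 and 92.4 CPM at 96 h, a 1.44-fold rise (0.52 ± 0.05, edgeR adjusted p = 1.52e-06). Tubb2b had 75.0, 87.1 and 93.0 CPM at 0 h and 112, 124 and 120 CPM at 96 h, a 1.40-fold rise (0.48 ± 0.07, edgeR adjusted p = 6.37e-05). The 0 h libraries of Tubb2b were more spread than those of Tubb2a, yet all lay below the 96 h libraries. The ratio of Tubb2b to Tubb2a per length was 0.963 ± 0.074 at 0 h and 0.936 ± 0.057 at 96 h, with overlapping libraries (exact two-sided permutation p = 0.5). Summed, the pair went from 150 ± 11 to 212 ± 4.6 CPM (0.50 ± 0.05), so their rise does not rest on how reads were divided between them. How reads shared with genes outside the pair were counted was not tested.

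Tubb3, the class III isotype, had the largest fall of the 10 genes. Its levels were 385, 384 and 380 CPM at 0 h and 254, 263 and 258 CPM at 96 h. Libraries within a group lay close together and the groups were far apart, with 96 h at 67.5% of 0 h (-0.57 ± 0.04, edgeR adjusted p = 4.31e-08). Of all genes tested, 13.4% had a lower log2 fold change than Tubb3, so falls of this size were not rare. Tubb5, the class I isotype and the most abundant beta-tubulin here, had 1603, 1564 and 1677 CPM at 0 h and 1259, 1310 and 1259 CPM at 96 h (-0.34 ± 0.04, edgeR adjusted p = 9.33e-06). Tubb5 stood above 99.9% of the tested genes in its 0 h CPM.

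Tubb6, the class V isotype, had 59.2, 61.0 and 71.9 CPM at 0 h and 50.5, 47.4 and 52.7 CPM at 96 h. The 0 h libraries were spread, with replicate 3 the highest, and all were above the 96 h libraries (-0.35 ± 0.08, edgeR adjusted p = 0.00150). Tubb4b, the class IVb isotype and a main beta-tubulin of cilia, had 290, 289 and 300 CPM at 0 h and 257, 263 and 281 CPM at 96 h. This was the smallest change of the 10 genes (-0.13 ± 0.05, edgeR adjusted p = 0.0225). It was not called with upper-quartile factors (-0.05, adjusted p = 0.329), with a stricter filter (-0.05, adjusted p = 0.285), or when replicate 3 at 0 h was left out (adjusted p = 0.0588), or replicate 1 (0.0813) or 2 (0.0539) at 96 h.

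**Figure D2:**
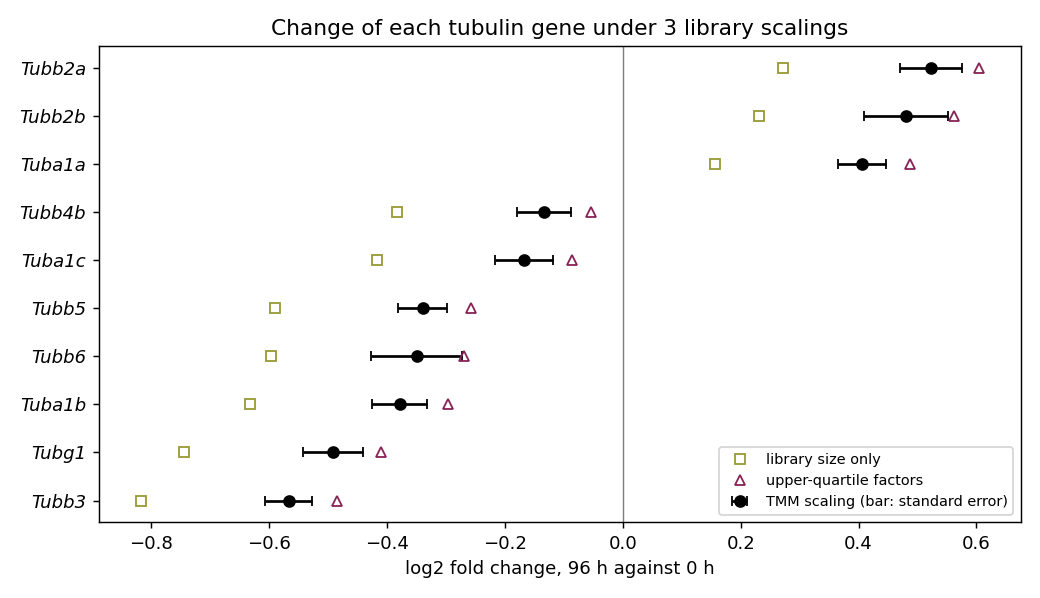
Log2 fold change at 96 h against 0 h (horizontal axis) of each tubulin gene with TMM scaling (black points, bars are standard errors), with scaling by library size only (squares) and with upper-quartile factors (triangles). Tuba1a, Tubb2a and Tubb2b stayed above 0 and the other 7 genes below 0 under all 3 scalings, while the sizes shifted together.

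Gamma-tubulin fell. Tubg1 had 105, 107 and 100 CPM at 0 h and 75.3, 72.8 and 74.0 CPM at 96 h, with 96 h at 71.1% of 0 h (-0.49 ± 0.05, edgeR adjusted p = 2.07e-06). The 96 h libraries were close together and well below the 0 h libraries. Its paralog Tubg2 was far less abundant, at 6.23 ± 0.23 and 5.39 ± 0.07 CPM, and did not pass (-0.21 ± 0.17, edgeR adjusted p = 0.303), although with scaling by library size only it did (-0.46, adjusted p = 0.0323).

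The order of the isotypes was taken per kilobase of transcript, and the first place at 96 h and some later places depended on the length used. At 0 h Tubb5 led with 610 ± 22 CPM per kilobase, followed by Tuba1a (454 ± 17) and Tuba1b (446 ± 6.5), whose libraries overlapped. Tubb3 (205 ± 1.4), Tubb4b (183 ± 3.9) and Tuba1c (161 ± 7.1) came next, each apart from its neighbours in every 0 h library. With coding length the last 2 turned round at 0 h, Tuba1c at 236 ± 10 and Tubb4b at 219 ± 4.7. Per kilobase of transcript the order went on as follows. Tubg1 (57.8 ± 1.8) stood above Tubb2a (40.4 ± 1.4), Tubb2b (39.0 ± 4.2) and Tubb6 (36.4 ± 3.9), and these last 3 overlapped their neighbours. At 96 h Tuba1a stood at 602 ± 0.99 CPM per kilobase of transcript, above Tubb5 (482 ± 11) in every library, and Tuba1b followed at 343 ± 20. Per kilobase of coding sequence Tubb5 led at both times, with 1209 ± 43 at 0 h and 956 ± 22 at 96 h against 604 ± 22.5 and 801 ± 1.3 for Tuba1a. Per kilobase of transcript at 96 h, Tubb3 (138 ± 2.3) had moved below Tubb4b (167 ± 7.7) and overlapped Tuba1c (143 ± 6.8). Tubb2a (58.1 ± 0.89) and Tubb2b (54.4 ± 2.6) had passed Tubg1 (41.1 ± 0.69). Tubb6 remained the lowest at 28.6 ± 1.5. With coding length at 96 h, Tubb3 (191 ± 3.2) overlapped Tubb4b (199 ± 9.2) and lay below Tuba1c (210 ± 9.9) in every library. The order of Tubb2a and Tubb2b turned with coding length in place of transcript length (ratio of Tubb2b to Tubb2a 1.30 at 0 h and 1.27 at 96 h).

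**Figure D3:**
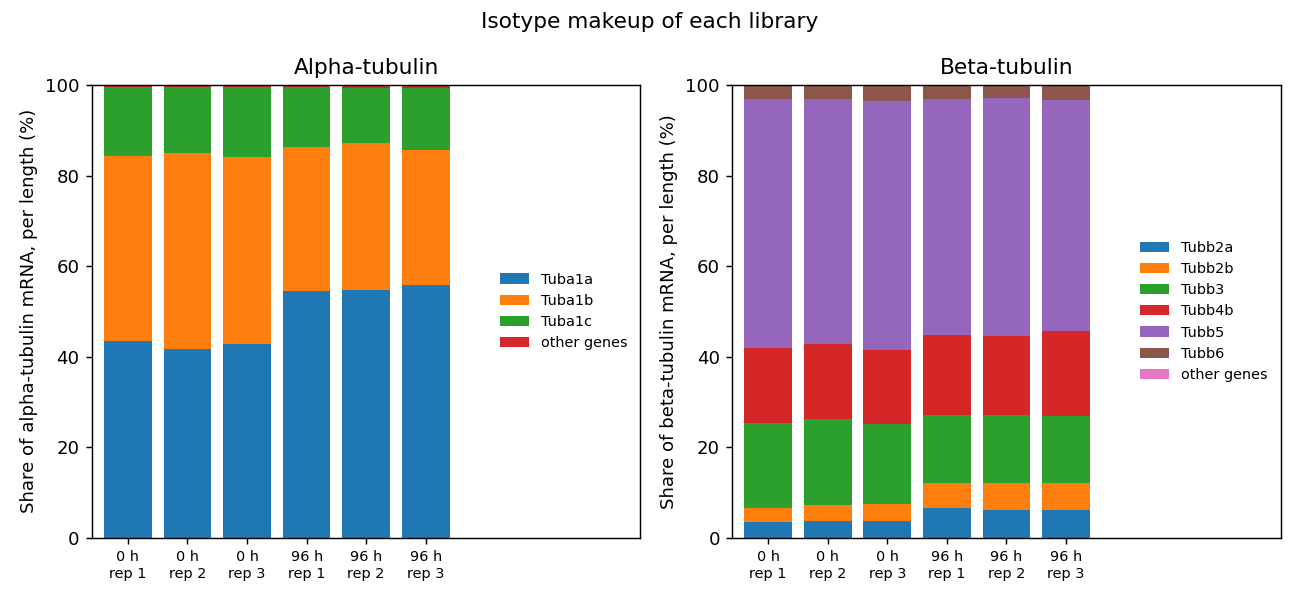
Share of alpha-tubulin mRNA (left) and of beta-tubulin mRNA (right) taken by each gene in each of the 6 libraries, in percent of the pool after division by transcript length. Tuba1a took 41.6% to 43.4% of the alpha pool at 0 h and 54.4% to 55.9% at 96 h, and Tubb2a and Tubb2b widened in the beta pool while Tubb3 and Tubb5 narrowed.

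Within the beta pool, Tubb5 kept over 50% in every library but went from 54.7% ± 0.55 to 51.9% ± 0.78, and Tubb3 from 18.4% ± 0.63 to 14.9% ± 0.06. Tubb2a rose from 3.63% ± 0.06 to 6.26% ± 0.19 and Tubb2b from 3.50% ± 0.32 to 5.85% ± 0.19. Tubb4b, whose own level fell slightly, took 16.5% ± 0.11 at 0 h and 17.97% ± 0.75 at 96 h; its level at 96 h was 91.1% of that at 0 h, and that of the pool 83.4%. None of these 5 shares overlapped between the groups (exact permutation p = 0.1 each, the smallest possible). The share of Tubb6 did overlap (3.27% ± 0.26 and 3.08% ± 0.19, exact permutation p = 0.5). With coding length in place of transcript length, Tubb5 took 64.6% and 61.9% and Tubb3 15.1% and 12.4%.

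The ratio of Tubb3 to Tubb5, the neuronal against the widely expressed isotype, went from 0.337 ± 0.014 to 0.287 ± 0.0032, and the ratio of Tubb2a plus Tubb2b to Tubb5 from 0.130 ± 0.0077 to 0.234 ± 0.0025. The class II and class III isotypes, both abundant in neurons, thus moved in opposite directions relative to Tubb5 in these libraries. Summed per length, all beta-tubulin went from 1114 ± 32 to 929 ± 15 CPM per kilobase, 83.4% of 0 h, and all alpha-tubulin from 1066 ± 17 to 1095 ± 14. The ratio of the alpha to the beta pool went from 0.958 ± 0.024 to 1.18 ± 0.03, with no overlap (exact permutation p = 0.1 for each of these 3 ratios). With coding length the same ratio was 0.760 and 0.949, so its level, though not its direction, depended on the length used.

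The remaining tubulin genes were low or silent. Of 10, Tuba3a and Tubb4a had 0 counts in all 6 libraries, Tuba3b had 2 counts at 0 h and 1 at 96 h, Tubal3 had 3 and 0, and these 4 were removed by the filter. Tuba4a (2.33 ± 0.54 and 3.75 ± 0.86 CPM, 0.68 ± 0.27, edgeR adjusted p = 0.0461) and Tubb1, the platelet isotype (0.350 ± 0.085 and 0.892 ± 0.16 CPM, 1.33 ± 0.48, edgeR adjusted p = 0.0293), were called higher. Both calls were lost without a filter (edgeR adjusted p = 0.0796 and 0.115) and with library size only (0.180 and 0.0722). They were also lost with a replicate block (edgeR adjusted p = 0.0661 and 0.0544) and with DESeq2 (adjusted p = 0.103 and 0.117). Tubb1 lost its call when any of the 6 libraries was left out (adjusted p = 0.0530 to 0.113), and Tuba4a without 0 h replicates 1 or 2 or 96 h replicates 1 or 2 (0.0683 to 0.216). Tuba8 (9.90 ± 1.2 and 11.5 ± 1.6 CPM), Tube1 (7.53 ± 2.0 and 9.17 ± 1.7 CPM) and Tubd1 (2.27 ± 0.41 and 2.37 ± 0.96 CPM), the last 2 coding for the centriolar epsilon- and delta-tubulins, did not pass (edgeR adjusted p = 0.209, 0.269 and 0.893).

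Tubulin must be folded before it can form dimers, and genes of the cytosolic chaperonin TRiC (CCT), which folds tubulin and actin, fell together. All 8 tested subunits were lower, under every alternative tried, with a median log2 fold change of -0.47 and a range of -0.69 to -0.31. Of all genes tested, 28.8% were lower and 28.7% higher. Cct3 went from 312 ± 7.1 to 193 ± 6.8 CPM (-0.69 ± 0.04) and Cct7 from 602 ± 14 to 422 ± 6.7 CPM (-0.51 ± 0.04). Cct6b had 0 counts in all libraries. Of the 6 subunits of prefoldin, which hands unfolded tubulin to TRiC, Pfdn4 (-0.49 ± 0.07) and Pfdn2 (-0.43 ± 0.06) fell and 4 did not pass. With scaling by library size only all 6 were lower, as were 5849 of the 13705 genes tested. Among 7 genes listed with the tubulin folding cofactors, Tbcb (-0.26 ± 0.07) and Tbca (-0.18 ± 0.06) fell, and Tbce (0.71 ± 0.24) and Tbcel (0.47 ± 0.11) rose. The products of Tbcb and Tbca bind alpha- and beta-tubulin respectively. With library size only, 4 of these 7 genes were lower, and neither Tbce nor Tbcel passed (edgeR adjusted p = 0.132 and 0.141). Tbca, whose groups overlapped, lost its call with upper-quartile factors (adjusted p = 0.207), with a stricter filter (0.171), and without 0 h replicate 2 (0.1195) or 3 (0.0636) or 96 h replicate 1 (0.0818) or 2 (0.0519). Tbce also lost its call without 0 h replicate 3 (adjusted p = 0.0767) and without 96 h replicate 1 (0.0732) or 3 (0.0909).

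Genes that place and anchor gamma-tubulin fell more often than they rose, 10 lower and 1 higher of 20 tested (median -0.19). Over all genes tested, 28.8% were lower and 28.7% higher. Haus3, a subunit of the augmin complex that branches microtubules, went from 40.3 ± 1.3 to 23.7 ± 1.0 CPM (-0.77 ± 0.07), and Tubgcp3, a core subunit of the gamma-tubulin ring complex, from 60.3 ± 1.1 to 46.3 ± 1.5 CPM (-0.38 ± 0.06). Cdk5rap2, a centrosomal activator of the ring complex, rose (107 ± 3.6 and 131 ± 3.2 CPM, 0.29 ± 0.05), a call lost with library size only (0.04, adjusted p = 0.598). With upper-quartile factors the list held 7 lower and 3 higher, and with library size only 14 lower and 0 higher (edgeR). Of all 13705 genes, 3342 were lower and 4526 higher with upper-quartile factors, and 5849 and 2409 with library size only. At an unadjusted p under 0.05 with TMM and edgeR, 2 of the list were higher.

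**Figure D4:**
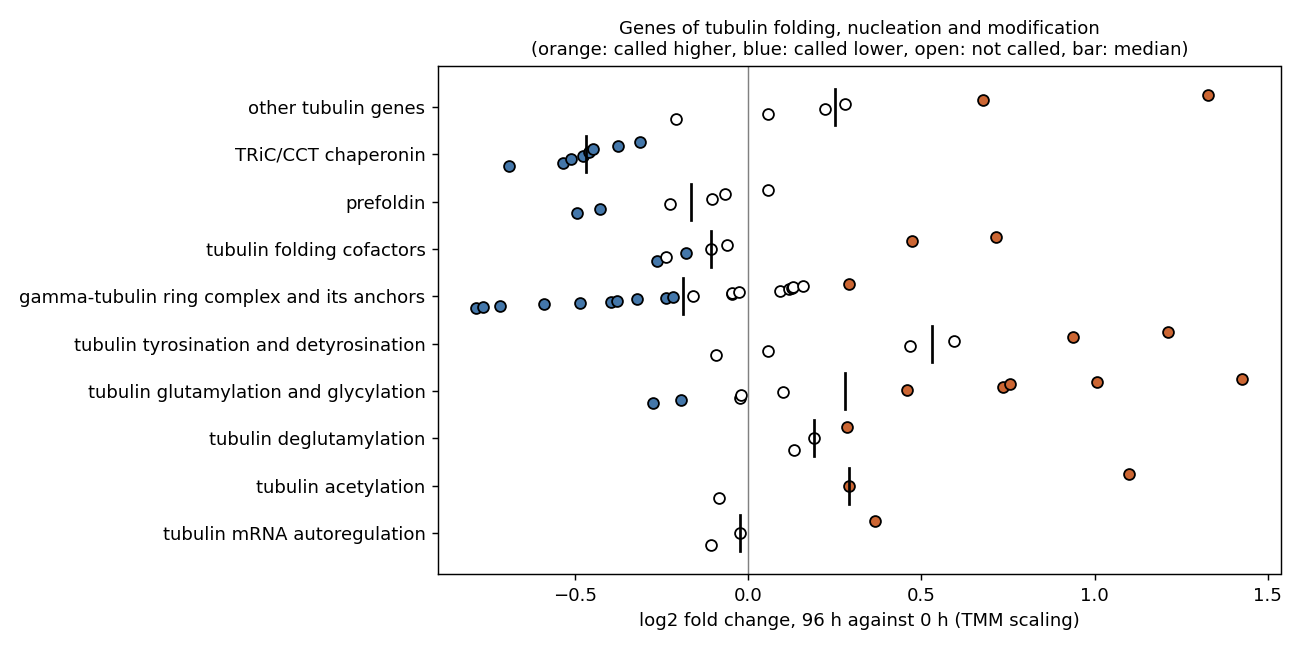
Log2 fold change at 96 h against 0 h (horizontal axis, TMM scaling) of the 72 tested genes of tubulin folding, nucleation, modification and feedback, by list; orange points were called higher, blue lower, open points were not called, and black bars are list medians. The 8 chaperonin subunits all lie below 0, and the enzymes that modify tubulin reach furthest above 0.

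Over the 4 lists of tubulin modification, 22 genes were tested, 10 were called higher and 2 lower, where 28.7% and 28.8% of all genes were. That count became 7 higher and 6 lower when library size was the only scaling, against 2409 and 5849 of all 13705 genes tested. Vash1 and Vash2, the vasohibins that remove the C-terminal tyrosine of alpha-tubulin, went from 59.9 ± 3.9 to 139 ± 3.6 CPM (1.21 ± 0.06, edgeR adjusted p = 1.11e-09) and from 31.8 ± 4.1 to 60.8 ± 0.89 CPM (0.94 ± 0.08, edgeR adjusted p = 3.14e-07). Both were called under every alternative tried. Their partner Svbp was low (1.70 ± 0.32 and 2.58 ± 0.37 CPM) and did not pass (edgeR adjusted p = 0.1004), nor did Ttl, the ligase that restores the tyrosine (39.8 ± 1.3 and 41.4 ± 1.0 CPM, edgeR adjusted p = 0.448). Among 6 genes of this cycle, 2 were higher and 0 lower (edgeR, DESeq2 and limma-voom). Over all genes tested with edgeR, 28.7% were higher and 28.8% lower. At an unadjusted p under 0.05 with edgeR also 0 of the 6 were lower, although with library size only 2 were lower.

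Of 16 genes listed with glutamylation and glycylation, 10 were tested, 5 were higher and 2 lower, where 28.7% and 28.8% of all genes tested were. The activity of each product was not tested. Ttll1, the catalytic subunit of a tubulin polyglutamylase complex, rose from 23.0 ± 2.3 to 38.8 ± 3.3 CPM (0.76 ± 0.09), and Nicn1, another subunit of that complex, from 10.8 ± 0.43 to 18.04 ± 2.1 CPM (0.74 ± 0.11). In the same list Lrrc49 was called higher with TMM scaling (0.46 ± 0.14, edgeR adjusted p = 0.0135). Tpgs1 did not pass (12.7 ± 0.89 and 12.5 ± 0.38 CPM, edgeR adjusted p = 0.873), and Tpgs2 had 0 counts at 0 h and 1 at 96 h. Ttll12 (-0.28 ± 0.05) and Ttll4, a glutamylase that starts side chains (-0.19 ± 0.07), fell, and the call of Ttll4 was lost with upper-quartile factors (adjusted p = 0.191) and with a stricter filter (adjusted p = 0.171), and when replicate 3 at 0 h (0.118) or replicate 2 (0.0761) or 3 (0.0680) at 96 h was left out. Agtpbp1, a deglutamylase that shortens the side chains, rose (0.29 ± 0.06), and the other 2 tested genes of its list did not pass. Atat1, the alpha-tubulin acetyltransferase, rose from 4.56 ± 0.70 to 9.77 ± 1.6 CPM (1.099 ± 0.18, edgeR adjusted p = 1.57e-04), as did the deacetylase Hdac6 (0.29 ± 0.09). With library size only Agtpbp1 and Hdac6 did not pass (0.04 each, adjusted p = 0.730 and 0.760). Hdac6 also lost its call with DESeq2 (adjusted p = 0.0604) and without 96 h replicate 2 (0.0606).

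The feedback on tubulin mRNA reads the start of the protein, and the first 30 coding bases show what the isotypes share there. Capitals mark the first 4 codons (GENCODE M21, GRCm38).
Tuba1a: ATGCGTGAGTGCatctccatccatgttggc
Tubb2a: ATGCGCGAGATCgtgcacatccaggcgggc
Tubb2b: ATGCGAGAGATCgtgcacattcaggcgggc
Tubb3: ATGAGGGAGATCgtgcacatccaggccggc
Tubb5: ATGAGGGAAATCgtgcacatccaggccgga

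Tuba1a, Tuba1b and Tuba1c have identical first 4 codons, as have Tubb3 and Tubb4b. Tubb2a, Tubb2b, Tubb3, Tubb4b and Tubb5 encode the same first 4 residues, in 4 versions of the codons. Of the 3 genes of this pathway, Ttc5, the factor that recognises nascent tubulin, went from 14.2 ± 1.9 to 18.3 ± 1.5 CPM (0.37 ± 0.11, edgeR adjusted p = 0.0132). That call was lost with library size only (0.11, adjusted p = 0.418), with DESeq2 (adjusted p = 0.0545) and when replicate 2 at 0 h (0.0799) or replicate 1 at 96 h (0.0744) was left out. Scaper (20.6 ± 1.3 and 20.3 ± 1.8 CPM) and Cnot11 (40.7 ± 3.7 and 37.8 ± 3.9 CPM), which link TTC5 to the deadenylase complex, did not pass (edgeR adjusted p = 0.832 and 0.317). With library size only both were lower (-0.28 and -0.35, adjusted p = 0.0250 and 0.00590). Over the 10 related lists together, 86 genes were listed and 72 tested, of which 16 were higher and 24 lower (22.2% and 33.3%), against 28.7% and 28.8% of all genes tested. When library size was the only scaling, the lists held 7 higher and 41 lower, against 2409 and 5849 over all genes.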

How the data were processed

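Stranded paired-end libraries were made from rRNA-depleted RNA, per the labels' protocols. The submitters' processing notes name FastQC 0.12.1, Salmon 1.10.1, DESeq2 1.52.0 and the build mm39, while the sources used here give neither the role of each nor the annotation or strand setting. The authors deposited estimated counts (expected counts, not normalised) for 40413 genes. These were rounded, filtered with filterByExpr (13705 genes left), scaled with TMM factors and compared with the quasi-likelihood test of edgeR 4.0.16 (R 4.3.3), with p adjusted over all genes tested. The design text calls the libraries biological replicates; no pair within a group agreed within sampling noise (chi-square per degree of freedom 6.79 to 13.9).

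Shares and ratios used the longest coding transcript of each gene (GENCODE M21) and an exact two-sided permutation test over libraries. Alternatives were 3 other scalings, no filter or at least 5 CPM in 3 libraries, DESeq2 1.42.0, limma-voom (limma 3.58.1), an adjusted p of 0.01, removal of structural RNA genes, a replicate block and leaving out each library. Members and gene lists were chosen with earlier results of these data known. Named were all 10 members, all tested tubulin genes, the 3 feedback genes, and per list up to 2 called genes in each direction by smallest adjusted p. Svbp, Ttl, Lrrc49, Tpgs1, Tpgs2 and genes at 0 were added after their values were seen. A marker gene and some sequences are not reported here.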

Additional observations from a re-analysis of the deposited data

How the results depend on the processing

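Tuba1a, Tubb2a and Tubb2b were called higher under all 16 alternatives, and all 10 genes kept their direction. Of the 7 lower genes, 5 were called with upper-quartile factors or a stricter filter, 6 with an adjusted p under 0.01, and 6 or 7 with any 1 library left out; Tuba1c and Tubb4b were the genes that lost calls. Scaling by library size only called 2409 of the 13705 genes tested higher in place of 3927, and moved all members down together. With coding length or no division by length, the change in the share of Tubb3 was -2.75 and -2.77 percentage points in place of -3.51 (-3.88 to -3.31 with 1 library left out). Genes that did not pass changed sign: Scaper with upper-quartile factors (0.0563), a stricter filter (0.0549) and within leave-one-out (-0.0996 to 0.0229), Tubd1 with library size only (-0.19), limma-voom (-0.00261) and within leave-one-out (-0.32 to 0.25), and Tuba8 with library size only (-0.0277). The replicate number paired no libraries (correlations of deviations -0.01, 0.01 and -0.005); with it as a replicate block 7 of the 10 genes were again lower and 3 higher, and 3854 genes of the table were higher. The cause of these shifts was not tested. Tuba4a, Tubb1 and Tubd1 had 22 to 185 counts per group, which limits their precision.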
